A study of Caenorhabditis elegans with 2 samples.

Results

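The Caenorhabditis elegans transcription factor HLH-11 belongs to the basic helix-loop-helix (bHLH) class and is a relative of the mammalian factor AP-4. Proteins of this family bind DNA as dimers and contact a short palindrome, the E-box CANNTG, and AP-4 itself prefers the form CAGCTG. In the worm HLH-11 has been studied as a regulator of fat metabolism. The 400 strongest of 7863 HLH-11 peaks, 5.09% of them, are described here. They were chosen by the peak signal that the authors deposited in the seventh column of their thresholded list, and the 7463 remaining peaks of that list are given beside them.

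The study used ChIP-seq, the sequencing of DNA recovered with a protein by immunoprecipitation, on whole L4 larvae, the last larval stage, at 53 hours and of mixed sex. The strain was OP396, genotype unc-119(tm4063) III; wgIs396, which carries an integrated transgene with GFP and FLAG fused to the C terminus of HLH-11. Worms were synchronized by starving hatched L1 larvae after bleaching, chromatin was sonicated to 200 to 800 bp, and an antibody to GFP was used. There is 1 group of 2 biological replicates and no group without the factor, so no condition is compared. Whole animals mix all tissues, so a peak cannot be placed in a cell type, and binding in few cells cannot be told apart from weak binding in many.

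Peak signal ran from 725 to 2943 among the 400, with a median of 969 and quartiles of 820 and 1205. The remaining peaks ran from 88.3 to 725, with a median of 174. These values chose the peaks and are given as a description only. The signal fell without a step at rank 400. The last 5 peaks inside lay nearest to nhr-14, F49E12.12, rpn-3, C52D10.3 and F43C9.1, at 729, 728, 726, 725 and 725. The first 5 outside lay nearest to D1054.18, gcy-3, sqd-1, oac-14 and C49F8.15, at 725, 724, 723, 723 and 722. The chosen peaks held 21.1% of the summed signal of the list. Their widths had a median of 483 bp and a range of 301 to 2249 bp. Only 2 of them had the width of 424 bp, which 4535 (60.8%) of the remaining peaks shared.

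**Figure D1:**
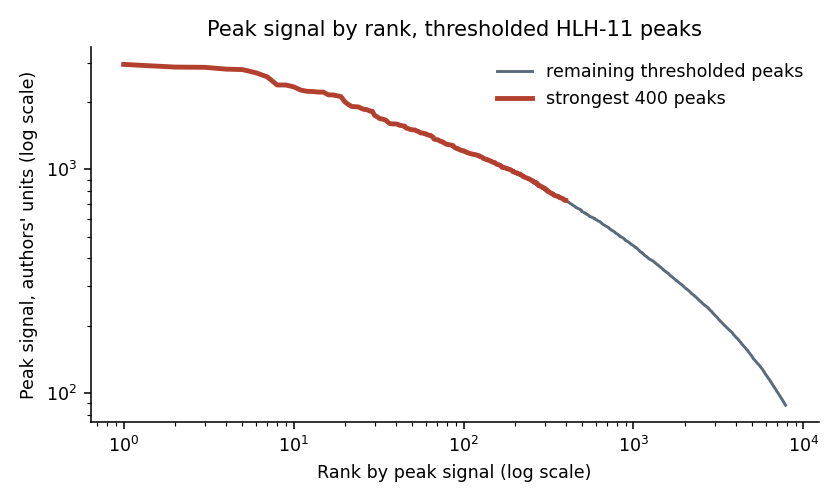
Peak signal of the 7863 thresholded peaks (vertical axis, the authors' units, log scale) against rank (horizontal axis, log scale), with the strongest 400 in red and the remaining peaks in grey. Signal declines from 2943 at rank 1 to 725 at rank 400 and continues below it without a gap.

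Sequence around the summits is shown first, since the E-box is the element that the factor family is known to contact. Each line is the plus strand of the ce11 (WBcel235) genome, taken from the RefSeq assembly, over the summit and 50 bp to either side. The first set holds the 6 strongest peaks on chromosomes II, III, IV, V and X that have CAGCTG in this window, and the capitals mark that E-box. In order, they are chrII:11967648-11967748 (rank 3), chrIII:4899891-4899991 (rank 12), chrII:11759433-11759533 (rank 16), chrIII:8904257-8904357 (rank 18), chrIII:10720324-10720424 (rank 21) and chrII:14251543-14251643 (rank 45). Names are those of the nearest protein-coding gene.
W03C9.5: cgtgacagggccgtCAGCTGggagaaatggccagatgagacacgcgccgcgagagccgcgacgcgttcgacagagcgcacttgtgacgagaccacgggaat
tag-340: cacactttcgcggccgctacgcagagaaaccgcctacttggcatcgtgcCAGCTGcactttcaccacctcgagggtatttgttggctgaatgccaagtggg
F44E5.4: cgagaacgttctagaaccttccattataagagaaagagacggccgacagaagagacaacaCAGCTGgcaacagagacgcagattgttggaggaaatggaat
lin-9: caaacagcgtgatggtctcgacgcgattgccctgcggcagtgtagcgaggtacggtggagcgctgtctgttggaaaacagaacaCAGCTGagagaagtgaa
W09D10.4: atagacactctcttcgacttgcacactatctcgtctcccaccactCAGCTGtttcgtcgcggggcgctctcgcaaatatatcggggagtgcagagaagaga
Y54G11A.2: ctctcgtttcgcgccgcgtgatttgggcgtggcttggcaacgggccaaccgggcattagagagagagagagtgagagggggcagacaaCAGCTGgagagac

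The second set holds the 6 strongest peaks on the same chromosomes without any CANNTG in the same window. They show that several of the highest peaks lack an E-box near the summit. Capitals mark CGTCTC, on either strand, the hexamer whose share differed most between the strongest and the remaining peaks, and a line without capitals holds neither. In order, they are chrIII:4282131-4282231 (rank 1), chrX:16929707-16929807 (rank 2), chrIII:10759206-10759306 (rank 5), chrIII:1925264-1925364 (rank 7), chrV:1151447-1151547 (rank 13) and chrIII:1921322-1921422 (rank 14).
sup-26: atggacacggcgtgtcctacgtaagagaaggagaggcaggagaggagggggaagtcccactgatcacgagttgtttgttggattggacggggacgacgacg
C30E1.4: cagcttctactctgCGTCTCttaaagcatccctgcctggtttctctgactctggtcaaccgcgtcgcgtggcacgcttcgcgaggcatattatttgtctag
tasp-1: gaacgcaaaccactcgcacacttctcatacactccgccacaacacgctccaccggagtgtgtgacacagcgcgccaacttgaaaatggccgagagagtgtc
pqn-41, rank 7: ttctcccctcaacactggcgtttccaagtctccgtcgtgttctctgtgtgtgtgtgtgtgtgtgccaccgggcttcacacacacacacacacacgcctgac
cmd-1: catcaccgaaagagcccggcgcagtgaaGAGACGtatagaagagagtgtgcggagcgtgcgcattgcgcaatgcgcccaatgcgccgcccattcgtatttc
pqn-41, rank 14: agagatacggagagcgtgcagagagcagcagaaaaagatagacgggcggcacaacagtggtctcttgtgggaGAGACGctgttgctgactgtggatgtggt

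The AP-4 type E-box CAGCTG lay within 50 bp of 52 of the 400 summits, 13.0% (exact binomial 95% interval 9.86 to 16.7). It lay near 289 of the 7463 remaining summits, 3.87% (3.45 to 4.34). In a pair of shorter windows centred 300 bp to either side of each of the strongest summits, together as wide as the summit window, the share was 2.5%, and over tiles of the same length across the genome it was 1.93%. The intervals count peaks only. All peaks come from the same 2 libraries, and read counts are not part of the lists, which leaves the depth behind each value unknown. By rank, the E-box was found at 14%, 14%, 11% and 13% of the 4 successive groups of 100 among the strongest peaks. The next groups of 100 had shares of 6%, 10%, 9%, 10% and 10%, and those from rank 901 to 1200 had 3%, 4% and 4%. The share of the lowest ranks, 4801 to 7863, was 3.30%. The interval of ranks 401 to 500, 2.23 to 12.6, included that share. The intervals of the groups from rank 501 to 900 lay above it. When a site was present its median distance from the summit was 21.5 bp, against 24.5 bp in the remaining peaks. The bases flanking the site were most often T or A, at 42.3% and 29.8% of 104 site ends. The remaining peaks had 36.9% and 27.7% of 588 site ends.

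CAGCTG was found at 34 of 225 promoter summits (15.1%), 12 of 95 intergenic summits (12.6%) and 4 of 61 intronic summits (6.56%, 1.82 to 15.9). The remaining peaks of these classes had 4.0%, 4.01% and 2.89%. The interval of the intronic summits includes the share of the remaining intronic peaks. On the X chromosome 10 of 99 of the strongest peaks had the E-box, and on the autosomes 42 of 301 did.

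Other E-boxes were counted in the same windows. CACGTG, the form bound by Myc and Max type factors, was found at 10.2% of the strongest summits (7.46 to 13.6) and 5.6% of the remaining ones. CACATG had 10% and 8.09%, and its interval of 7.24 to 13.4 includes the share of the remaining peaks. Any CANNTG was found at 215 of the strongest summits (53.8%), at 43.6% of the remaining ones and at 32.2% of genome tiles.

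A count of all 2080 hexamers, with both strands pooled, gave the widest gaps. These hexamers were singled out after their values were seen, and their gaps are the largest by that choice. CGTCTC was found at 29.5% of the strongest summits (25.1 to 34.2), 13.1% of the remaining ones and 4.25% of the flanking windows. Its longer form GAGACGCA had 15.8%, 6.02% and 0.5%. GAGAGA, a GA repeat, had 37.8%, 23.5% and 6.0%. AGAGAC had almost the same gap as CGTCTC, with 31.8%, 15.4% and 4.75%. Its sequence overlaps both GAGACG, which is CGTCTC on the other strand, and the GA repeat. The counts of these hexamers are therefore not independent. At 238 summits (59.5%) at least 1 of the AP-4 type E-box, the hexamer CGTCTC and the GA repeat was present, against 33.3% of the remaining summits.

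TGATAA, a site form of GATA factors, which drive intestinal and epidermal genes in the worm, showed the widest gap in the other direction. It was found at 36 of the strongest summits, 9.0% (6.38 to 12.2), and at 24.9% (24.0 to 25.9) of the remaining ones. The share at the strongest summits was near that of their flanking windows, 10.2%, and of genome tiles, 9.35%. By rank it was 3%, 5%, 15% and 13% within the strongest 400 and 21%, 26%, 24% and 26% in the 4 groups of 100 after them. At promoter summits the shares were 5.33% and 24.6%.

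Base composition moved with these counts. The windows of the strongest summits had a mean GC content of 50.6% ± 7.19 (SD over 400 peaks), and those of the remaining peaks 43.8% ± 8.03 (SD over 7463 peaks), while the flanking windows had 35.8% and 35.1%. Windows with a GC content of 45 to 55%, a range set after the data were seen, were held by 208 of the strongest and 2540 of the remaining peaks. Within that range CAGCTG was found at 13.9% (9.54 to 19.4) and 4.29%, and CACGTG at 13.0% and 5.51%. CGTCTC had 32.2% (25.9 to 39) and 18.3%. GAGAGA had 37% (30.4 to 44.0) and 29.9% (28.1 to 31.7), and these intervals overlapped. That gap was narrower than over all windows, where GAGAGA had 37.8% and 23.5%. TGATAA had 8.17% (4.83 to 12.8) and 9.09%, so its gap was not seen among windows of like composition.

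**Figure D2:**
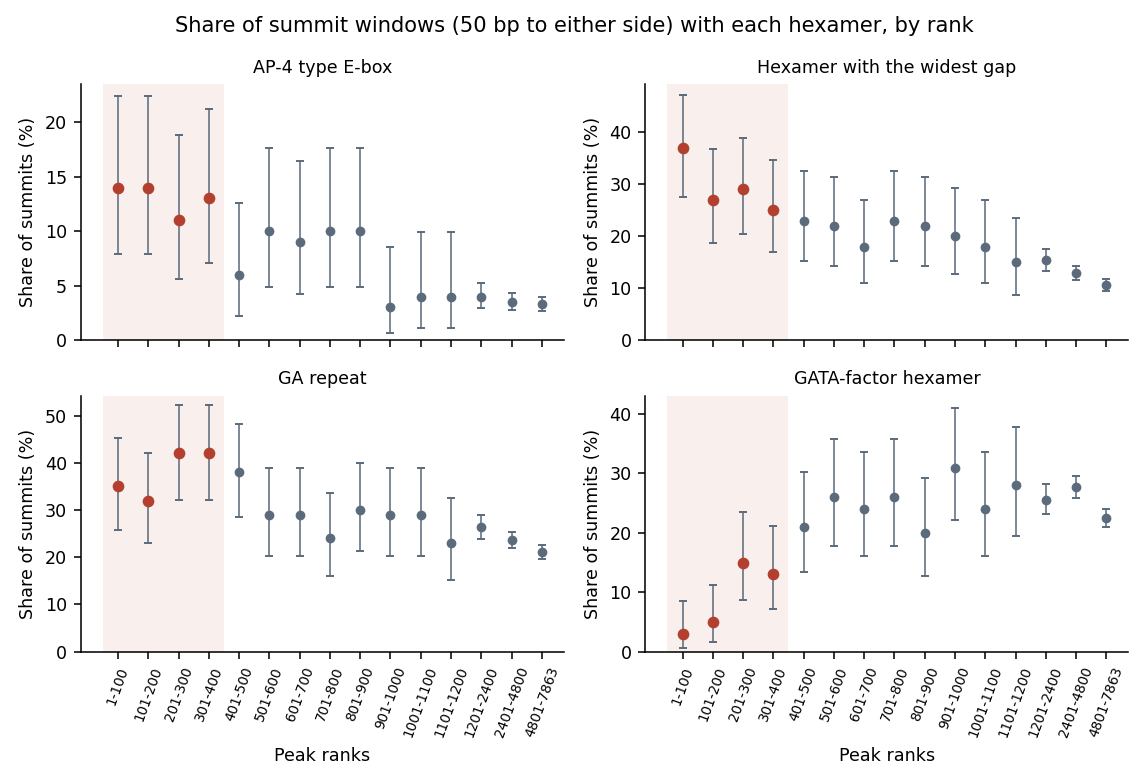
Share of summits (vertical axes, %) with a hexamer within 50 bp, by peak rank (horizontal axes), with exact binomial 95% intervals; red points on shading are the strongest 400 in groups of 100. The panels show the AP-4 type E-box (14%, 14%, 11% and 13% in red), the hexamer with the widest gap, CGTCTC (37% in the first group), the GA repeat and the GATA-factor hexamer TGATAA (3% in the first group).

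Each summit was placed in the Ensembl annotation of WBcel235, release 115. A summit was placed in a promoter when it lay at most 1000 bp before or 500 bp after the annotated start of a protein-coding gene, and otherwise in the first fitting class of coding exon, untranslated region, intron, non-coding gene and intergenic sequence. Many annotated worm starts are sites of trans-splicing, so transcription may begin farther upstream. Of the 400 summits, 225 were in promoters (56.2%, 51.2 to 61.2), against 52.9% (51.7 to 54) of the remaining peaks. Intergenic summits numbered 95 (23.8%, against 24.7%), and intronic summits 61 (15.2%, against 15.8%). A further 15 lay in non-coding genes (3.75%, against 3.47%). In each of these 4 classes the interval of the strongest peaks included the share of the remaining ones. Coding exons held 2 summits, 0.5% (0.0606 to 1.79), against 155 (2.08%). Among the 22137 pooled peaks that did not pass the authors' threshold, 33.2% of summits were in promoters and 23.6% in coding exons.

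The median distance to the nearest protein-coding start was 734 bp (565 to 871) for the strongest peaks and 747 bp (713 to 780) for the remaining ones. Quartiles were 239 and 2144 bp against 198 and 1874 bp. Promoter summits stood farther from the start, at a median of 276 bp (237 to 304) against 212 bp (202 to 222). Of all 400 summits, 20.8% (16.9 to 25.1) lay within 200 bp of a start, against 25.4% (24.4 to 26.4) of all remaining summits. The summit was upstream of its nearest start at 312 of the 400 peaks, 78.0% (73.6 to 82.0), against 71.2% (70.2 to 72.3). More than 5000 bp from any start lay 29 of the strongest peaks, 7.25% (4.91 to 10.2), against 4.6% (4.13 to 5.10).

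**Figure D3:**
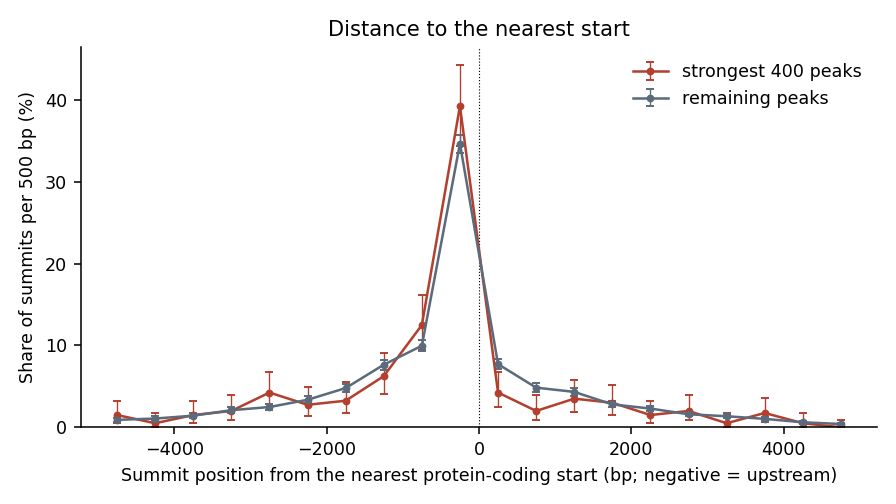
Share of summits per 500 bp (vertical axis, %) by signed distance to the nearest protein-coding start (horizontal axis, bp, negative upstream) for the strongest 400 peaks in red and the remaining peaks in grey, with exact binomial 95% intervals. Both sets are highest in the 500 bp upstream of the start, and 78.0% of the strongest peaks lie upstream against 71.2% of the remaining ones.

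The farthest summit, with a signal of 954, was in an intron. Its nearest start was that of gcn-1, 20149 bp away, whose human relative GCN1 acts in amino acid stress signalling. Next came summits nearest to C41A3.2 at 15212 bp (upstream of that start, in a coding exon), irld-18 at 13410 bp, K01F9.2 at 11522 bp and T23E1.1 at 9660 bp. The strongest of these 5 was the irld-18 peak, rank 66. The only summit in a 3′ untranslated region had rank 63 and a signal of 1419. It lay 1773 bp upstream of its nearest start, that of atgl-1, and the gene that holds this region was not named. ATGL-1 is the worm relative of adipose triglyceride lipase, which begins the breakdown of stored fat. The only summit in a 5′ untranslated region lay nearest to C34C12.1, at rank 266.

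The promoter windows of genes on both strands were shared by 56 summits, 14% (10.8 to 17.8), against 8.58% (7.95 to 9.23) of the remaining peaks. An example is rank 16, 172 bp upstream of F44E5.4 and 179 bp upstream of F44E5.5, both genes of the Hsp70 chaperone family. Another is rank 24, 170 bp upstream of drr-2, a relative of translation factor eIF4H, and 176 bp upstream of set-16, a histone H3 lysine methyltransferase of the MLL type. At rank 3 the summit lay 154 bp upstream of W03C9.5, 767 bp upstream of rab-7, a GTPase of late endosomes, and 939 bp upstream of mex-1, an RNA-binding protein of the early embryo. Such summits count for each of these genes.

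By chromosome, the strongest 400 peaks numbered 55 on I, 57 on II, 72 on III, 58 on IV, 59 on V and 99 on X. Chromosome X held 24.8% of them (20.6 to 29.3) and 23.7% of the remaining peaks, on 17.7% of the genome's length. Per Mb, X held 5.59 and the autosomes 3.65, a ratio of 1.53, against 1.45 in the remaining peaks. The animals were of mixed sex and no copy number was measured. Chromosome III held 18% (14.4 to 22.1) against 14.4%, and 5.22 peaks per Mb. Its interval just includes the share of the remaining peaks. Within ranks 1 to 100, 27% lay on III, and in the next groups of 100 the share was 15%, 18% and 12%. No interval was computed for these groups, and the first counts several summits each at zfp-1 and pqn-41. Chromosome V had the lowest density, 2.82 per Mb. The middle of 3 equal parts of each chromosome held 39.5% (34.7 to 44.5) against 41.8%.

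**Figure D4:**
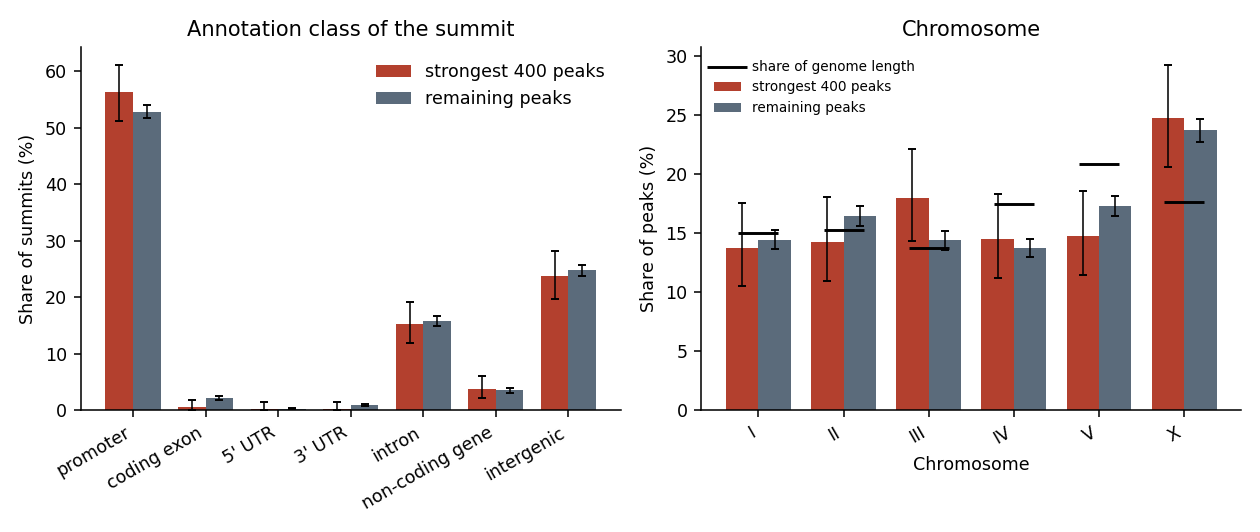
Share of summits (vertical axes, %) by annotation class (left) and by chromosome (right) for the strongest 400 peaks in red and the remaining peaks in grey, with exact binomial 95% intervals; black lines give each chromosome's share of genome length. Promoters hold 56.2% and 52.9% of the summits, and X holds 24.8% and 23.7% of the peaks.

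The strongest peaks often had neighbours. Another thresholded summit lay within 1000 bp of 142 of them, 35.5% (30.8 to 40.4), against 26.2% (25.2 to 27.2), and 62 (15.5%) shared their interval with another thresholded peak, against 2.10%. Peaks with 1 interval and several summits are not separate regions. Counting only the strongest 400, 73 lay in 30 groups linked by steps of at most 5000 bp, and 23 of these groups were pairs.

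The largest group held 7 summits over 13782 bp around mdl-1 on chromosome X. MDL-1 is a Mad-like bHLH protein, a partner of Max type factors. The strongest, rank 29, had a pooled signal of 1821, with 673 in replicate 1 and 1145 in replicate 2. It lay in a non-coding gene 1660 bp downstream of the mdl-1 start. The mdl-1 promoter summit, 76 bp upstream, had rank 170 and a signal of 1023, with 426 and 600 in the replicates. No protein-coding gene covers the rank 29 summit, so mdl-1 ends before it. The intronic summits 5800, 6981 and 7991 bp downstream thus lay in another gene, with mdl-1 only as the nearest start. Their signals were 762, 1173 and 1225. The other two summits of the group, at 1424 and 760, lay nearest to R03E9.2. So the highest peak of this group was not the one at the mdl-1 start.

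Groups of 4 were found at pqn-41 and zfp-1, both on chromosome III. PQN-41 is a glutamine-rich protein needed for the death of the linker cell in males, and its 4 intronic summits had signals of 2589, 2214, 1194 and 1175. ZFP-1 is the worm relative of the leukemia fusion partner AF10. Its 3 summits had signals of 1823, 1485 and 1243, and the fourth, at 1151, lay nearest to F54F2.6. Groups of 3 were at W06H8.6, sma-9, Y43F8B.2 and between letm-1 and lpin-1. LPIN-1 is the worm lipin, an enzyme of glycerolipid synthesis, and 2 summits of that group lay 2403 and 3401 bp upstream of it, at 848 and 876.

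In all, 280 of 19973 protein-coding genes (1.4%) had a summit of the strongest 400 in the promoter window, and 4247 (21.3%) had any thresholded summit there. The first share was the background for the gene lists that follow, and 6.59% was the share of strongest summits among genes with any. The strongest summit lay 1957 bp upstream of sup-26, an RNA-binding translational regulator. Its signal of 2943 stood beside 1123 in replicate 1 and 1828 in replicate 2. Among ranks 1 to 30 were the promoters of rpl-3 (2804), tos-1 (2700), ztf-7 (2382), puf-9 (2381), serp-1.1 (2261), tag-340 (2232, shared with nhl-2), lin-9 (2133) and epn-1 (2113). PUF-9 is a Pumilio family RNA-binding protein, and NHL-2 is a cofactor of microRNA silencing. EPN-1 is epsin, an adaptor of endocytosis. Away from promoters, the same ranks held summits nearest to C30E1.4, ppfr-1, cmd-1 (calmodulin), epg-9, Y111B2A.12, bcat-1 (branched-chain aminotransferase), W09D10.4, T04C4.3, ppm-2, fos-1 (the worm Fos) and pkg-2 (a cGMP-dependent kinase).

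Genes of translation gave the highest count among the lists. Of 82 cytosolic ribosomal protein genes, 12 (14.6%) had a strongest summit in the promoter and 65 had any thresholded summit. At rpl-3 the signal was 2804, with 1269 in replicate 1, the highest value of that replicate, and 1541 in replicate 2. Below it came rpl-15 at 1679, rpl-20 at 1657, rpl-35 at 1502, rps-19 at 1330 and rpl-12 at 1007. The rpl-20 and rps-19 summits lay nearer to the starts of Y17G9B.5 and hsr-9. Of 40 translation factor genes, 6 (15%) were in the set. These were iff-2, the worm eIF5A, at 1496, and the elongation factor genes eef-1A.2 (1044), eef-1G (1000), eef-1A.1 (761), eef-1B.1 (737) and eef-2 (729). The eef-1A.1 summit lay nearer to the start of rfc-4. Of 70 mitochondrial ribosomal protein genes and 32 aminoacyl-tRNA synthetase genes 0 had one, where 14 and 10 had any thresholded summit. On lists this short, 0 is near the 1.4% share of all genes.

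The list of named heat shock protein, DnaJ and chaperonin genes had 8 of 59 (13.6%). It leaves out F44E5.4 and F44E5.5, the Hsp70 family genes at rank 16, whose shared summit had a signal of 2152. Within the list the highest was hsp-3, an Hsp70 of the endoplasmic reticulum, at 1292, followed by dnj-14 (1017), hsp-60 (891), hsp-1 (870), dnj-13 (834) and cct-8 (795). The dnj-14, hsp-60 and cct-8 summits lay nearer to the starts of glit-1, Y22D7AL.10 and Y55F3AR.2. Autophagy and lysosome genes had 5 of 52 (9.62%). Both worm relatives of the autophagosome protein LC3 were among them, lgg-2 at 1906 and lgg-1 at 1092. The lgg-2 window held a further summit of the 400, 405 bp downstream of the start, at 1287. The others were epg-7 (946), atg-18 (890) and vha-12 (784), a subunit of the vacuolar proton pump. Respiratory chain genes had 5 of 50 (10%), namely cox-5A (1315), cox-5B (1095), nduf-2.2 (923, nearer to dlc-1), atp-1 (849) and sdha-1 (764). The proteasome list had 1 of 33, rpn-3 at 726, and glycolysis and TCA cycle genes had 2 of 46, pck-2 at 752 and aco-2 at 737, in a window shared with eef-1B.1.

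Among regulators of lipid metabolism, 4 of 24 genes (16.7%) were in the set. They were nhr-68, a receptor of the propionate response, at 1600, crh-1, the worm CREB, at 884, nhr-66 at 853 and hlh-30, the worm TFEB, at 755. The nhr-68 summit, 382 bp from that start, lay nearer to the start of H12C20.7. The hlh-30 promoter summit was 225 bp upstream of the start, with 349 in replicate 1 and 409 in replicate 2. A summit 926 bp downstream of the hlh-30 start, in an intron and outside the window, was stronger, at 801. The enzymes and carriers of fat storage and oxidation had 1 of 115 (0.870%), the fatty acid desaturase gene fat-4 at 765, while 57 of the 115 had any thresholded summit. Counted by promoter windows, the share of this list was not above that of all genes. Outside the windows, summits of the 400 lay upstream of the starts of 3 other genes of the list, as the nearest starts. They were atgl-1 (1419, 1773 bp, in a 3′ untranslated region), cpt-1 (1197, 2516 bp), a carnitine palmitoyltransferase gene of fatty acid oxidation, and fat-2 (837, 1214 bp), a desaturase gene. These were named after their values were seen. In their promoter windows, the 20 insulin and TOR genes had only rheb-1, a GTPase that activates TOR, at 921. Its summit lay nearer to the start of spk-1. Outside the windows, summits nearest to the start of daf-16, of the insulin pathway, had signals of 1077, 900 and 802. They were named after their values were seen.

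Of 274 nuclear hormone receptor genes, 5 (1.82%) had a strongest summit, near the share of all genes, with nhr-68, nhr-35 (1009), nhr-66, nhr-58 (824) and nhr-1 (767). The 40 bHLH genes had 2, mdl-1 and hlh-30. Other transcription factor genes had 8 of 140 (5.71%), led by ztf-7, sma-2 (1236), zip-2 (1018), fkh-7 (1004), sma-9 (919) and hmg-1.2 (918). SMA-2 is a Smad and SMA-9 a zinc finger cofactor of the TGF-beta pathway that sets body size. The homeobox list had ceh-38 (798) and egl-27 (1573) among 97, though egl-27 encodes an MTA1-like chromatin protein and is not a homeobox gene. The chromatin list had 3 of 38, lin-9 and lin-54 of the DREAM complex, a repressor of cell cycle genes, and cbp-1, the worm CBP/p300. The lin-54 summit, at 1007, was the one also counted for rpl-12. Heterochronic genes, which time larval development, had lin-28 (851) and lin-66 (761) among 16 in the promoter windows. An intronic summit outside the windows, at 1168, lay nearest to lin-42. It was named after its value was seen. The RNA-binding list had puf-9, lin-28 and snr-4 (786) among 81, and the histone list his-37 (1523) among 60.

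No strongest summit lay in the promoter of any of 44 muscle genes, 175 cuticle collagens, 237 C-type lectins or 31 major sperm protein genes. Any thresholded summit was found at 27, 34, 31 and 0 of them. The share over all genes was 1.4%, and 0 is near it for the short muscle and major sperm protein lists. Chemoreceptor genes had 2 of 1354 (0.148%), srh-2 (1570) and srlf-7 (741). F-box genes had fbxa-83 (845) and fbxc-19 (755) among 315 (0.635%), and the neuropeptide list had ins-39 (793) among 143 (0.699%). Among genes of these 3 lists with any thresholded summit, the shares were 5.88%, 6.45% and 11.1% (1 of 9 genes), against 6.59% over all genes. Of all genes, 5 had a pair of these summits in the promoter window, lgg-2, zfp-1, drap-1, din-1 and E01G4.3. At drap-1 the signals were 1669 and 802, and at din-1 1112 and 957.

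Genes of small RNAs were looked for within 200 bp of the summits. No summit of the 400 lay within 200 bp of a tRNA gene, which allows a share of up to 0.918% by the exact interval, whereas 245 of the remaining peaks did (3.28%). snoRNA genes were near 8 summits (2.0%, 0.867 to 3.90, against 1.31%), and snRNA genes near 4 (1.0%, 0.273 to 2.54, against 0.429%), and both intervals include the share of the remaining peaks. Of those 4 snRNA genes, 3 were genes of the SL2 spliced leader RNA, which is joined to the mRNAs of downstream operon genes. They were sls-2.1 (1442), sls-2.4 (1228) and sls-2.2 (965), with the summit 58, 46 and 43 bp from the gene. Their copies are alike in sequence, and how reads that fit several copies were placed is not given in the sources used here. The strongest snoRNA loci were C02F5.15 (1405), F07A11.15 (957) and T03F7.8 (905). The microRNA gene cel-mir-5549 was 6 bp from 1 summit, at 761, which was also the summit counted for eef-1A.1.

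The replicates were compared through each replicate's own list of peaks and background, ranked by signal. A member was matched to the best-ranked summit within 100 bp. These lists share their reads with the pooled list that chose the peaks, so high ranks follow in part from the choice. All 400 were matched in both replicates. In replicate 1 their signals ran from 246 to 1269 with a median of 418, and in replicate 2 from 372 to 1828 with a median of 569. The ratio of replicate 2 to replicate 1 had a median of 1.35, with 1.11 and 1.70 at the 5th and 95th percentiles. The signals of replicate 2 were thus higher at nearly all members, so ranks, not signals, are compared between the lists.

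Of the 400, 372 (93.0%) were within the strongest 400 of replicate 1, 375 (93.8%) within those of replicate 2, and 347 (86.8%, 83.0 to 89.9) within both. None was outside the strongest 400 of both. Within the strongest 500 of both were 391, and within the strongest 800 all 400. The lowest place was 681 in replicate 1 and 500 in replicate 2. Across the 400 peaks Spearman's rho of the replicate ranks was 0.862. The median difference in rank was 36 places and the largest 430. Summits were placed a median of 5 bp from those of replicate 1 and 4 bp from those of replicate 2, against 9 and 7 bp for the remaining peaks.

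**Figure D5:**
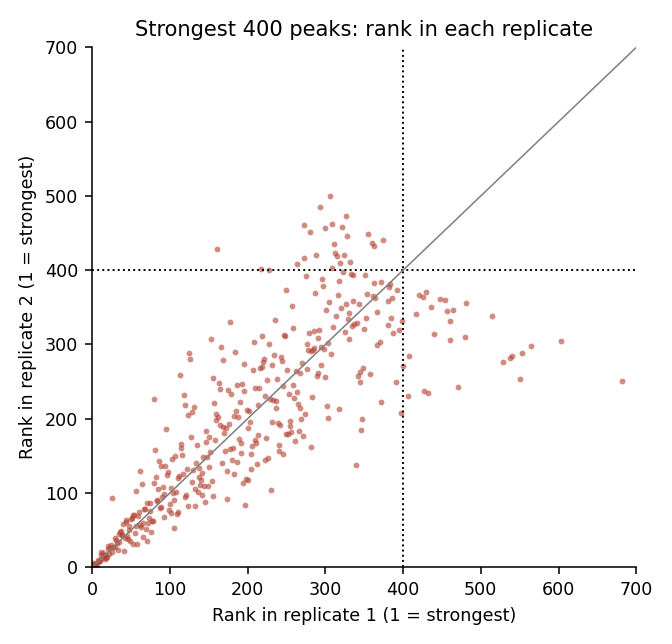
Rank of each of the 400 strongest peaks in replicate 1 (horizontal axis) and replicate 2 (vertical axis), 1 being the strongest; the dotted lines mark rank 400 and the grey line equal ranks. The lower left square holds 347 peaks, no peak lies in the upper right square, and the lowest places are 681 in replicate 1 and 500 in replicate 2.

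The ratio of the ranks was largest at the top of the list, where a few places make a large ratio. The sup-26 peak had rank 6 in replicate 1 and 1 in replicate 2, and the rpl-3 peak 1 and 6. The cdc-48.1 peak followed, with ranks 25 and 93 and signals of 785 and 731. CDC-48.1 is a AAA ATPase that extracts ubiquitinated proteins. Its signal was lower in replicate 2, against the general ratio. T24B8.3 had ranks 80 and 226. The promoter peak of pck-2, which encodes a phosphoenolpyruvate carboxykinase, had ranks 681 and 251, with 246 and 506 in signal. Ranks were within 1.5 times of each other at 312 of the 400 peaks.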

How the data were processed

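Peaks of HLH-11 ChIP-seq from 2 replicates were used as deposited by the authors, on build ce11. Per the file headers the lists derive from the alignments of the replicates and 1 control. The peak caller, its settings and read depth are not stated in the labels or headers. The authors' deposited signal, whose scale is not stated, ranked the peaks. Their deposited −log10 q-values were at the ceiling for all 400 and for 5593 of the 7463 remaining peaks, and were not used further. The summit offset, deposited as another column, placed each summit. Genes came from Ensembl release 115 and sequence from RefSeq WBcel235. Shares have exact Clopper-Pearson 95% intervals, which cover the counting of peaks only. With 1 group there is no test and no p-value. Scripts (Python 3.11.15, numpy 2.4.6, scipy 1.17.1) were checked on simulated data. The peaks and the 27 gene lists were chosen with earlier results of these data known. Genes were named by a fixed rule: ranks 1 to 30, the edge of rank 400, the strongest of each class and chromosome, the 5 farthest, the 5 largest rank ratios, genes with several summits, up to 6 per gene list and the small RNA genes. lpin-1, the groups of summits and the genes added to lists from outside the promoter windows were chosen after their values were seen. Alternatives changed the replicate, number of peaks, merging, promoter, motif and match windows, and small RNA peaks.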

Additional observations from a re-analysis of the deposited data

How the results depend on the processing

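Of 124 alternative values for 17 results, 104 stayed within the interval of the reported value (for the gene count, within 1.5 times) and 20 moved. Ranking by 1 replicate alone moved none. A promoter of 500 bp upstream to 250 bp downstream gave promoter, intergenic and divergent promoter shares of 42.2%, 32.8% and 8.0%, and 2000 to 500 bp gave 67.5%, 16.5% and 25%, since the window sets them. Motif windows of 25 bp and 100 bp to either side gave CAGCTG at 6.75% and 17.8%, CGTCTC at 16.8% and 43.8%, GAGAGA at 20% and 59.2%, and TGATAA at 4.75% and 18%. The strongest 200 gave TGATAA 4.0%, coding exons 0%, 135 genes and 83.0% within the strongest 200 of both replicates. The strongest 800 gave TGATAA 16.6% and 553 genes. The shares of the AP-4 type E-box, the hexamer CGTCTC, the GA repeat and divergent promoters stayed above those of the remaining peaks in every alternative. That of TGATAA stayed below in every alternative, but within a GC content of 45 to 55%, 8.17% against 9.09% left no gap beyond its interval. In 12 of 106 comparisons the direction changed, all among promoter, intron, intergenic and X chromosome shares and the median distance, whose intervals already included the remaining peaks' value. The alternatives for CGTCTC, GA repeat, TGATAA and divergent promoter shares, and the range of GC content, were chosen after seeing the data. No paired analysis was possible because there is 1 group. Depth is unknown, so no limit from it can be given.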
